A study of Mus musculus with 6 samples.

Results

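Chemokines are small secreted proteins that guide the movement of leukocytes and other cells, and they act through G protein-coupled receptors. Their genes and those of their receptors were examined here in cultured mouse heart cells in which the transcript of Gdf11, a growth factor related to myostatin and the activins, was lowered. Members were chosen by gene name among the protein-coding genes listed, by a rule that uses no measured value: the Ccl, Cxcl, Xcl and Cx3c ligand names, the Ccr, Cxcr, Xcr and Cx3cr receptor names, the atypical receptors (Ackr) and Ccrl2. This gave 68 of 54532 listed genes, with 44 ligand genes and 24 receptor genes under 62 distinct symbols. Another 3 genes matched by name but were not annotated as protein-coding (Cxcl11, Ccl19-ps1 and Ccl19-ps3).

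The cells were primary ventricular cardiomyocytes of 1-day-old C57BL/6J pups. In the shGDF11 group (3 samples) they carried a short hairpin RNA, an RNA that lowers its target transcript, directed at Gdf11. Numbers 1 to 3 follow the hairpin's name in the treatment labels, and it is not stated if they stand for different hairpins or for repeats of the same one. In the control group (3 samples) they carried a control hairpin, called sh-nc in the sample labels and sh-Vector in the treatment protocol. Both groups received their hairpin at a multiplicity of infection of 200 for 48 h before RNA extraction, so every sample was a transfected culture, and the control hairpin is the only baseline.

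Levels are given in FPKM, fragments scaled by gene length and library depth, and the table allowed the reads behind each value to be recovered. The libraries held 15267083 to 16152910 reads in listed genes. Gdf11 itself (ENSMUSG00000025352) was at 0.614, 0.601 and 0.778 FPKM in shGDF11 cells, against 2.76, 2.30 and 2.31 FPKM in control cells, with no overlap. The shGDF11 mean was 27.1% of the control mean (log2 fold change -1.34 ± 0.125 SE, limma adjusted p = 0.00079). With 3 samples a group, the exact permutation test (two-sided) cannot go below p = 0.1, and that was its value here. Of the cardiomyocyte markers, all 11 were measured and summed to 7180 to 7470 FPKM in shGDF11 cells and 8550 to 8810 FPKM in control cells. They did not move together: 3 were called higher (Tnni3, Myl2 and Myl7) and 5 lower. The cultures also held transcripts of other cell types: the 14 macrophage markers summed to 139 to 150 FPKM in shGDF11 cells and 182 to 203 FPKM in control cells. Markers of lymphocytes summed to 0.673 to 0.856 FPKM in shGDF11 cells and 0.706 to 1.16 FPKM in control cells, with Cd3g and Ms4a1 without a read in any library. Of the 9 neutrophil markers, 2 passed the filter on low values, and Elane had no read in any library.

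Chemokines fall into families by the spacing of their first cysteines, and many ligands share a receptor. In the heart, macrophages, endothelial cells, fibroblasts and the muscle cells themselves can make them. Inflammatory members such as Ccl2 and Cxcl1 are switched on by cytokines and by the transcription factor NF-kB, whereas homeostatic members such as Cxcl12 are made at rest.

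Chemokine transcripts were lower in shGDF11 cells for 12 of the 30 members that passed the filter (a mean of at least 0.5 FPKM), and 0 of them were higher. The 12 were the ligands Cxcl5, Cxcl1, Ccl7, Ccl20, Ccl2, Ccl6, Cxcl12, Cxcl16, Cxcl2 and Ccl9 and the receptors Ccr1 and Ackr3. The ligands Cxcl5, Cxcl1, Ccl7, Ccl20 and Ccl2, in that order, lay at log2 fold changes between -1.84 and -1.21. A gene is called here when its limma adjusted p, over all 15418 genes tested, is under 0.05. Each fold change is shGDF11 minus control on the scale of log2(FPKM + 0.5), which understates the change of weakly expressed genes.

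The plot of fold changes shows all 30. The background is large, since 27.6% of all tested genes were called. Of all tested genes, 13.1% were called lower and 14.4% higher. Among the tested members the share called lower was 40.0% and the median log2 fold change was -0.38, against 0.01 over all genes tested. Genes both called and at least 2-fold lower on log2(FPKM + 0.5) made up 1.05% of all tested genes and 5 of the 30 members. On the ratio of means, Cxcl2 (38.6% of control) and Ccr1 (42.5%) were also more than 2-fold lower, as was Ccl11 (43.2%), which was not called. In 15 members every shGDF11 value lay below every control value, against 22.2% of all tested genes. In 1 member, Cx3cl1, every shGDF11 value lay above, against 23.7% of all tested genes. These counts describe the members above the filter and not all members. Ccl11, Ackr2, Cxcl2, Cxcl13 and Ccl8 reached it through their higher group alone, and 11 of the other 25 were lower. After rescaling to TPM, another way to scale for depth, 66.2% of all called genes were higher, against 52.4% here, and 9 members were lower and 0 higher.

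**Figure D1:**
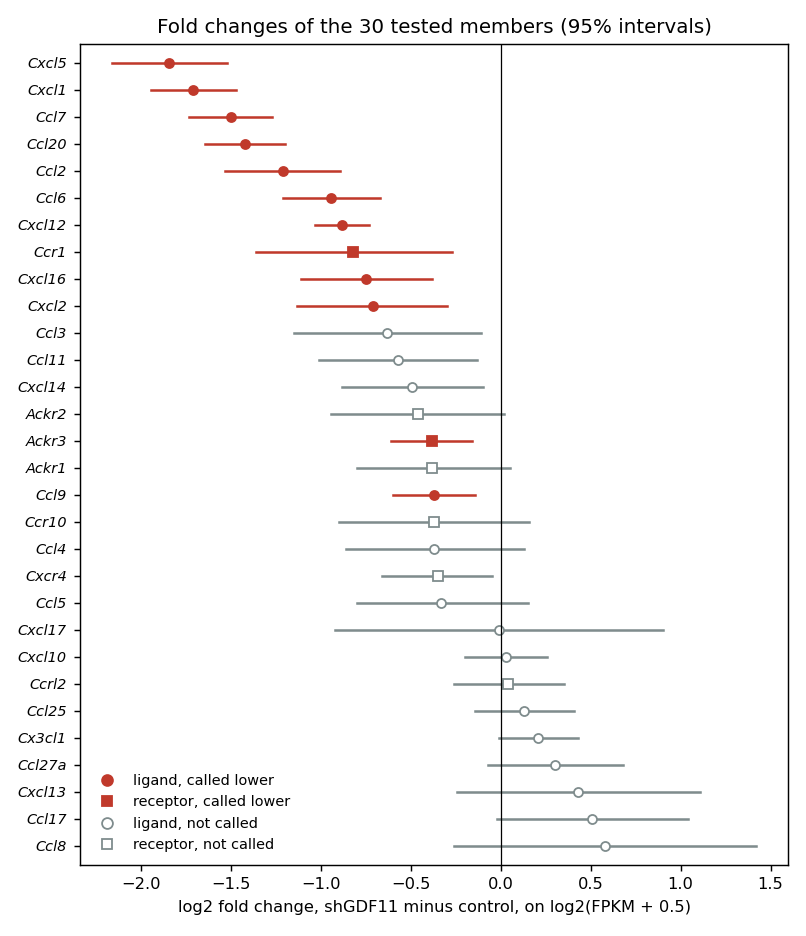
Log2 fold change of each of the 30 tested members, shGDF11 minus control on log2(FPKM + 0.5), with points at the estimate, bars for the 95% interval of the limma fit, circles for ligands and squares for receptors. Filled red symbols are the 12 members called lower, which lie between -1.84 and -0.37, and open grey symbols are the 18 members not called, the highest of which is Ccl8 at 0.58.

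Summed over all 44 ligand genes, the level was 126.0, 121.4 and 117.2 FPKM in shGDF11 cells, against 243.7, 227.2 and 229.9 FPKM in control cells. The summed receptor level was 14.95, 15.49 and 14.35 FPKM in shGDF11 cells, against 18.67, 18.46 and 21.66 FPKM in control cells. Ligand transcripts thus outweighed receptor transcripts in every library, and neither sum overlapped between the groups. Ccl2, Ccl7 and Ccl6 together made up 48.6%, 45.5% and 42.5% of the ligand FPKM in shGDF11 cells and 57.0%, 55.2% and 57.6% in control cells. The order of the mean levels differed too. In shGDF11 cells Ccl2, Ccl6 and Ccl7 were followed by Cx3cl1 and Cxcl10, while in control cells Ccl2, Ccl7 and Ccl6 were followed by Cxcl1 and Cxcl5. Ccl6 and Ccl7 in shGDF11 cells, and Ccl2 and Ccl7 in control cells, differed by less than the SD of either.

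Markers of several cell types also differed, and their counts stand beside 13.1% lower, 14.4% higher and 27.6% called either way over all tested genes. Of the macrophage markers, 12 were tested and 4 were lower (Lyz2, C1qa, C1qb and Mrc1), with a median log2 fold change of -0.36. Adgre1, Csf1r and Fcgr1 had log2 fold changes of 0.03, 0.01 and 0.02 and were not called. Cd68, C1qc, Cd14, Tyrobp and Fcer1g were not called either, at -0.21, -0.39, -0.32, -0.62 and -0.32. Below the filter, Itgam was at 0.388, 0.389 and 0.222 FPKM in shGDF11 cells, against 0.621, 0.621 and 0.720 FPKM in control cells. Ptprc, also below it, had overlapping groups. Of 11 endothelial markers, 8 were lower, and their sum was 78.7 to 82.0 FPKM in shGDF11 cells and 109 to 117 FPKM in control cells. Of 8 smooth muscle and pericyte markers, 5 were lower (Acta2, Cnn1, Tagln, Myh11 and Cspg4). The sums of all 8 were 463 to 467 FPKM in shGDF11 cells and 1060 to 1150 FPKM in control cells. Acta2 made up most of both sums, with means of 370.3 FPKM in shGDF11 cells and 992.9 FPKM in control cells. Pdgfrb, Rgs5 and Mcam were not called, at log2 fold changes of 0.06, 0.01 and 0.10. Of 10 fibroblast markers, 3 were higher (Col1a2, Col3a1 and Ddr2) and 0 lower. The sums of all 10 were 390 to 407 FPKM in shGDF11 cells and 312 to 368 FPKM in control cells. Col1a1 was the largest part of both sums, with means of 158.6 FPKM in shGDF11 cells and 139.2 FPKM in control cells. The fibroblast markers not called had log2 fold changes from -0.17 (Pdgfra and Tcf21) to 0.21 (Col1a1 and Lum). Of 4 mast cell markers, 3 were tested and 2 were higher (Cpa3 and Mcpt4). Kit, the other one tested, went the other way without overlap and was not called (log2 fold change -0.31, limma adjusted p = 0.071). It was called lower with limma voom (0.020) and without a variance trend (0.041). Of 4 mesothelial markers 1 was higher (Upk3b). Cpa3, Upk3b and the smooth muscle marker Tagln reached the filter through their higher group alone. Camp, of the 2 neutrophil markers tested, was lower. The part of these cell types in the chemokine results was not tested. Fewer cells of a type and less RNA per cell cannot be told apart in bulk samples such as these.

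Of the CXC ligands that attract neutrophils through the receptor Cxcr2, Cxcl5, Cxcl1 and Cxcl2 were lower and Cxcl3 was below the filter. Their genes lie in 1 stretch of chromosome 5. Cxcl5 and Cxcl1 had the lowest log2 fold changes of the tested members. Cxcl5 (90759360 to 90761624 of GRCm38, plus strand), the mouse ligand also known as LIX, was at 3.40, 2.59 and 2.83 FPKM in shGDF11 cells, against 11.3, 14.0 and 10.3 FPKM in control cells. Every shGDF11 value lay below every control value, at 24.8% of the control mean. Its log2 fold change was -1.84 ± 0.135 (SE, 95% interval -2.16 to -1.52, limma adjusted p = 0.00036). Cxcl1 (90891241 to 90893115, plus strand), or KC, the main neutrophil attractant of the mouse, was at 5.42, 5.08 and 6.02 FPKM in shGDF11 cells, against 19.7, 20.9 and 16.8 FPKM in control cells. The groups lay far apart, with a shGDF11 mean of 28.8% of control (log2 fold change -1.71 ± 0.0997 SE, limma adjusted p = 0.00025).

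Cxcl2 (90903871 to 90905938, plus strand), or MIP-2, was expressed far more weakly. It was at 0.353, 0.236 and 0.420 FPKM in shGDF11 cells, against 0.800, 1.04 and 0.771 FPKM in control cells, from 8 to 14 reads per shGDF11 library and 26 to 36 per control library. The groups did not overlap. The log2 fold change was -0.71 ± 0.177 (SE, limma adjusted p = 0.024), and -1.37 on the recovered reads with limma voom, which adds a far smaller offset. The call was lost without shGDF11 replicate 1 (limma adjusted p = 0.062), without shGDF11 replicate 2 (0.077) and without control replicate 2 (0.079). It was also lost with replicate number as a block (0.070), within a range of 0.0096 to 0.079 over 15 alternatives. Cxcl3, the fourth gene of this kind, did not pass the filter and held 19, 11 and 12 reads in shGDF11 libraries and 24, 26 and 29 reads in control libraries. Its groups did not overlap either, but it was not called when the filter was dropped (log2 fold change -0.37, limma adjusted p = 0.15). Together the 4 genes summed to 9.501, 8.098 and 9.477 FPKM in shGDF11 cells, against 32.23, 36.36 and 28.38 FPKM in control cells. Their receptors were barely detected: Cxcr2 had 2, 3 and 3 reads in shGDF11 libraries and 2, 2 and 3 reads in control libraries, and Cxcr1 had at most 3 reads in any library.

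The bases before the start sites of Cxcl1, Cxcl2 and Cxcl3 are shown because each of these neighbours holds a pair of short matches, with those of Ccl20, which is lower in shGDF11 cells, and of Cxcl10, which was not called. They are the 250 bases before the start of the gene in the RefSeq promoter table of GRCm38.p6, read 5′ to 3′ on the strand of the gene, and capitals mark matches on either strand. The kappa B form, to which NF-kB can bind, was searched as GGG, any 3 bases and TTCC, and the interferon response form as GAAA, any 2 bases and GAAA.
Cxcl1, chr5:90890995-90891244, plus strand: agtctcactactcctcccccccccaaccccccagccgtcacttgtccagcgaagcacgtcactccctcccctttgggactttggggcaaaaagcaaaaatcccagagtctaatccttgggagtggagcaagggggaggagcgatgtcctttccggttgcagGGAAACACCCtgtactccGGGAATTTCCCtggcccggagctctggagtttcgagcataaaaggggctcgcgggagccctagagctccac
Cxcl2, chr5:90903649-90903898, plus strand: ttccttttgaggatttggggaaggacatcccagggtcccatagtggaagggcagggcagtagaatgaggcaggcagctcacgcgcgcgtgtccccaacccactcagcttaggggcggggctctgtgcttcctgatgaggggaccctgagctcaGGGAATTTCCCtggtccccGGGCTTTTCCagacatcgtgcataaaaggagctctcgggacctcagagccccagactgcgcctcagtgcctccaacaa
Cxcl3, chr5:90785851-90786100, plus strand: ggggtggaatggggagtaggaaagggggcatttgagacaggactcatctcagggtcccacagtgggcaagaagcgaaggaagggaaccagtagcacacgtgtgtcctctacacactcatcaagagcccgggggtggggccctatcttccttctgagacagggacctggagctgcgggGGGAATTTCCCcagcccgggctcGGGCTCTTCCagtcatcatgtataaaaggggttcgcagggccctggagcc
Ccl20, chr1:83116516-83116765, plus strand: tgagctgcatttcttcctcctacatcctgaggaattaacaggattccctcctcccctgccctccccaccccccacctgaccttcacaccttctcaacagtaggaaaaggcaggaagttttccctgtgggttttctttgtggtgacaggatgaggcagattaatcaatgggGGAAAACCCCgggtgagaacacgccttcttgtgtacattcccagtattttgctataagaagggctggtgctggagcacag
Cxcl10, chr5:92348890-92349139, minus strand: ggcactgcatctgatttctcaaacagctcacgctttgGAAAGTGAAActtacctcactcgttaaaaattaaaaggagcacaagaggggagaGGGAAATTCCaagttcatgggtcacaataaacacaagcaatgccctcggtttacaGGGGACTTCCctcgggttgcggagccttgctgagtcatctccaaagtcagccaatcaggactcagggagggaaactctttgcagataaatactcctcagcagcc

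Positions count back from the start site to the first base of the match. Cxcl1 held GGGAATTTCC at -71, Cxcl2 held it at -97 and Cxcl3 at -73, and because the kappa B form reads alike on both strands there, an overlapping match on the other strand followed at -70, -96 and -72. Each of the 3 had another kappa B match nearby, at -89 in Cxcl1, -78 in Cxcl2 and -50 in Cxcl3. Ccl20 had 1 match, at -80. Cxcl10 had kappa B matches at -159 and -104 and the interferon form at -213.

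Promoter windows of 300 bases (250 before and 50 after the start) were found for 47 of the 62 member symbols and 21 of the 30 tested members. Without one were Ccl2, Ccl4, Ccl5, Ccl7, Ccl11, Ccr10, Cxcl5, Cxcl16 and Cxcl17. The kappa B form was in the windows of 4 of the 8 members called lower (Cxcl1, Cxcl2, Ccl20 and Ccl9) and in 1 of the 13 not called (Cxcl10). It was in 5.56% of all 32851 windows. The interferon form was in 0 of the 8 and in 2 of the 13 (Cxcl10 and Cxcl14), and in 3.44% of all windows. ACGTG is the core to which the hypoxia-inducible factor HIF-1 binds. Among the tested members it was in the windows of Cxcl1 and Ccrl2, and it was in 19.6% of all windows. TGANTCA, the AP-1 form, was among the tested members in those of Ccl9, Ccl27a and Cxcl10, and in 7.81% of all windows. Some members below the filter also held these 2 forms, such as Cxcl3 for ACGTG and Cxcl9 for TGANTCA. Both strands were searched for each, and a match is a run of letters and not evidence of binding.

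Of the CC ligands that attract monocytes through the receptor Ccr2, Ccl2 and Ccl7 were abundant and lower, while Ccl12 was below the filter. Ccl2 (chromosome 11, 82035571 to 82037453, plus strand), or MCP-1, was at 24.1, 20.5 and 20.04 FPKM in shGDF11 cells, against 61.6, 45.5 and 45.4 FPKM in control cells. The groups were far apart, and control replicate 1 was the highest library (log2 fold change -1.21 ± 0.135 SE, limma adjusted p = 0.0013). Ccl7 (82045712 to 82047525, plus strand), or MCP-3, lies 10.1 kb from Ccl2. It was at 18.4, 16.7 and 15.2 FPKM in shGDF11 cells, against 43.0, 50.4 and 51.1 FPKM in control cells. That is 34.8% of the control mean, with no overlap (log2 fold change -1.50 ± 0.0969 SE, limma adjusted p = 0.00028).

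Ccl12, a mouse ligand of Ccr2 in the same neighbourhood, had 3, 2 and 1 reads in shGDF11 libraries and 6, 5 and 7 reads in control libraries. Its groups did not overlap, and it lay just under the filter, at a mean of 0.4586 FPKM over the 6 libraries. It was not called when the filter was dropped (limma adjusted p = 0.052). Ccr2 itself had 2 reads in shGDF11 replicate 2 and 0 in the other 5 libraries. Near Ccl12 in the same stretch of chromosome 11 lies Ccl11 (eotaxin), which attracts eosinophils through Ccr3. It was at 0.281, 0.282 and 0.344 FPKM in shGDF11 cells, against 0.529, 0.665 and 0.906 FPKM in control cells, from 5 to 16 reads per library. The groups did not overlap, but it was not called (log2 fold change -0.57, limma adjusted p = 0.062) except without a variance trend (0.022, the lowest of 15 alternatives, whose highest was 0.15). Ccl8, whose mouse protein acts on Ccr8, went the other way in its means, with 8, 5 and 6 reads in shGDF11 libraries and 3, 0 and 7 reads in control libraries. Those reads overlap between the groups, and Ccl8 was not called (log2 fold change 0.58, 95% interval -0.26 to 1.42, limma adjusted p = 0.27).

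A second stretch of chromosome 11 holds Ccl5, Ccl9, Ccl6, Ccl3 and Ccl4, all inflammatory ligands. Of these, Ccl6 and Ccl9, rodent ligands of Ccr1, were called. Ccl6 (83587882 to 83593087, minus strand) was at 18.8, 18.0 and 14.6 FPKM in shGDF11 cells, against 34.4, 29.6 and 36.0 FPKM in control cells. The shGDF11 mean was 51.4% of control and the groups did not overlap (log2 fold change -0.94 ± 0.114 SE, limma adjusted p = 0.0017). Ccl9 was at 4.74, 3.73 and 4.01 FPKM in shGDF11 cells, against 5.56, 5.73 and 5.19 FPKM in control cells. The gap between its groups was narrow (log2 fold change -0.37 ± 0.0972 SE, limma adjusted p = 0.030). Ccl9 lost its call without shGDF11 replicate 2 (limma adjusted p = 0.10), shGDF11 replicate 3 (0.097), control replicate 1 (0.059) or control replicate 2 (0.092). It also lost it after rescaling to TPM (0.083), without the filter (0.069) and with replicate number as a block (0.057). The range was 0.023 to 0.10 over 16 alternatives.

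Ccl3 and Ccl4, the macrophage inflammatory proteins MIP-1 alpha and beta, and Ccl5, or RANTES, were not called. Ccl3 was at 2.15, 3.03 and 1.94 FPKM in shGDF11 cells, against 4.65, 4.62 and 2.72 FPKM in control cells. Control replicate 3 lay within the range of the shGDF11 libraries (log2 fold change -0.63, limma adjusted p = 0.073). Ccl5 was at 4.63, 4.90 and 4.97 FPKM in shGDF11 cells, against 8.29, 6.50 and 4.34 FPKM in control cells. Here too control replicate 3 was low, below every shGDF11 library (log2 fold change -0.33, limma adjusted p = 0.27). Without control replicate 3 both were called lower, with a limma adjusted p of 0.017 for Ccl3 (range over 16 alternatives 0.017 to 0.20) and of 0.019 for Ccl5 (range over 17 alternatives 0.019 to 0.58). With replicate number as a block Ccl3 was called lower as well (limma adjusted p = 0.033). Ccl4 was at 1.84, 1.20 and 2.07 FPKM in shGDF11 cells, against 3.09, 2.09 and 1.86 FPKM in control cells, which overlap (log2 fold change -0.37, limma adjusted p = 0.24). The 11 Ccl genes of both stretches of chromosome 11 summed to 76.24, 69.18 and 64.06 FPKM in shGDF11 cells, against 162.2, 145.7 and 149.3 FPKM in control cells.

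**Figure D2:**
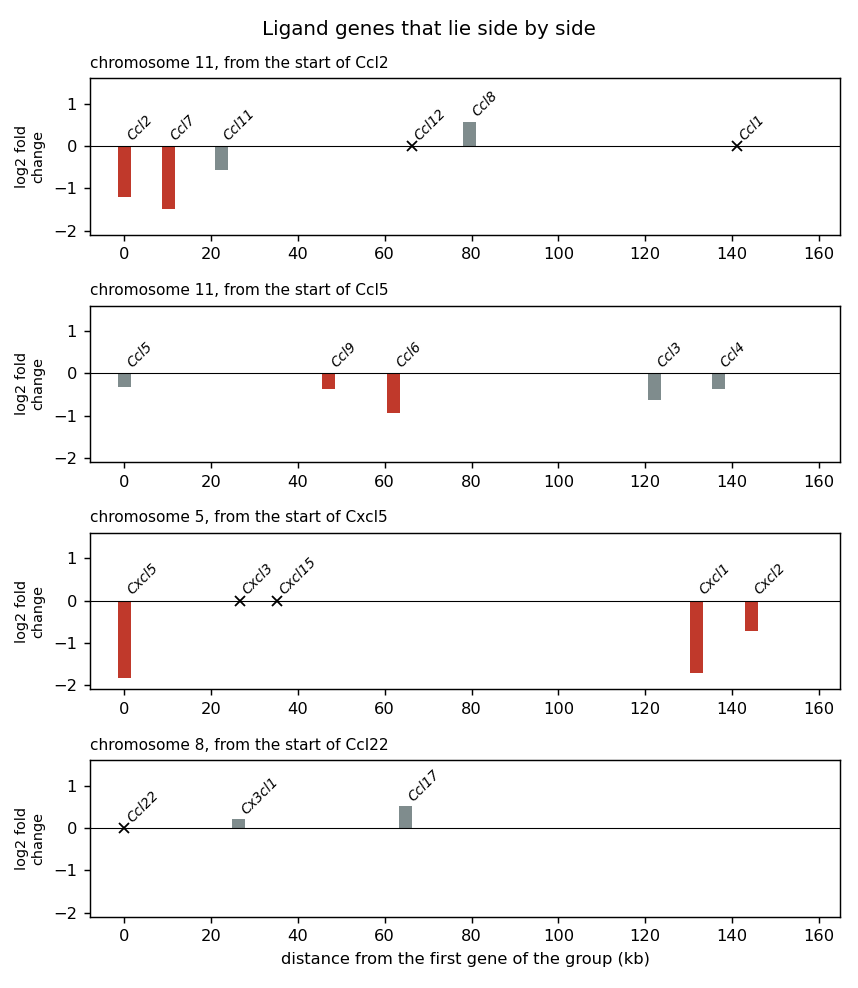
Log2 fold change (shGDF11 minus control, on log2(FPKM + 0.5)) in the 4 stretches of 3 or more ligand genes, each within 250 kb of the next, that hold a tested gene, by distance in kb from the first gene of the stretch. Red bars are genes called lower, grey bars are tested genes not called, and crosses are genes below the filter, drawn at 0 with no value; the called genes sit beside genes not called in each chromosome 11 stretch, and the chromosome 8 stretch holds no called gene.

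Ccl20 (chromosome 1, 83116766 to 83119167, plus strand), the ligand of Ccr6 that attracts dendritic cells and Th17 cells, was among the steepest falls. It was at 1.58, 1.59 and 1.48 FPKM in shGDF11 cells, against 4.57, 4.90 and 5.56 FPKM in control cells. The shGDF11 libraries lay close together, at 31.0% of the control mean (log2 fold change -1.42 ± 0.0943 SE, limma adjusted p = 0.00030). Ccr6 had no read in any library, which allows at most 0.0776 to 0.0823 FPKM per library at a floor of 3 reads.

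Cxcl12, or SDF-1, a homeostatic ligand that retains stem cells and guides vessel growth, fell with little spread. Cxcl12 (chromosome 6, 117168535 to 117181367, plus strand) was at 5.11, 4.72 and 4.90 FPKM in shGDF11 cells, against 9.67, 9.40 and 9.33 FPKM in control cells. The shGDF11 mean was 51.9% of control, and the standard error was the smallest of the 30 tested members (log2 fold change -0.88 ± 0.0629 SE, limma adjusted p = 0.00035). Its signalling receptor Cxcr4 (chromosome 1, 128588199 to 128592293, minus strand) was the most abundant receptor transcript, at 6.395, 5.843 and 5.76 FPKM in shGDF11 cells, against 6.371, 7.996 and 9.29 FPKM in control cells. The groups overlap through control replicate 1, and Cxcr4 was not called (log2 fold change -0.35, 95% interval -0.66 to -0.05, limma adjusted p = 0.086). Without control replicate 1 it was called lower (log2 fold change -0.49, limma adjusted p = 0.012, the lowest of 17 alternatives, whose highest was 0.25).

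Ackr3 (chromosome 1, 90203980 to 90216751, plus strand), an atypical receptor that takes up Cxcl12 without signalling through G proteins, was at 3.07, 3.06 and 2.80 FPKM in shGDF11 cells, against 3.74, 3.83 and 4.58 FPKM in control cells. The groups did not overlap (log2 fold change -0.38 ± 0.0961 SE, limma adjusted p = 0.025). Its call was lost without each shGDF11 library in turn (limma adjusted p = 0.063, 0.071 and 0.088 for replicates 1, 2 and 3) and without control replicate 2 (0.052) or 3 (0.053). It was also lost after rescaling to TPM (0.095), without the filter (0.062) and with replicate number as a block (0.067). The range was 0.021 to 0.095 over 16 alternatives.

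Cxcl16, a membrane-bound ligand of Cxcr6 that also takes up oxidised lipoprotein, was at 2.82, 2.36 and 3.63 FPKM in shGDF11 cells, against 6.09, 4.96 and 4.67 FPKM in control cells. The groups did not overlap (log2 fold change -0.75 ± 0.155 SE, limma adjusted p = 0.013). Cxcl16 (chromosome 11, 70453983 to 70459984, minus strand) shares 18.3% of its exon bases with Zmynd15 on the other strand, which was itself at 0.814, 1.01 and 0.801 FPKM in shGDF11 cells and 2.80, 1.86 and 2.06 FPKM in control cells. Whether counting used the strand is not given in the sources used here, so reads of the shared bases cannot be told apart. Cxcr6 had 8, 13 and 12 reads in shGDF11 libraries and 12, 12 and 13 reads in control libraries.

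**Figure D3:**
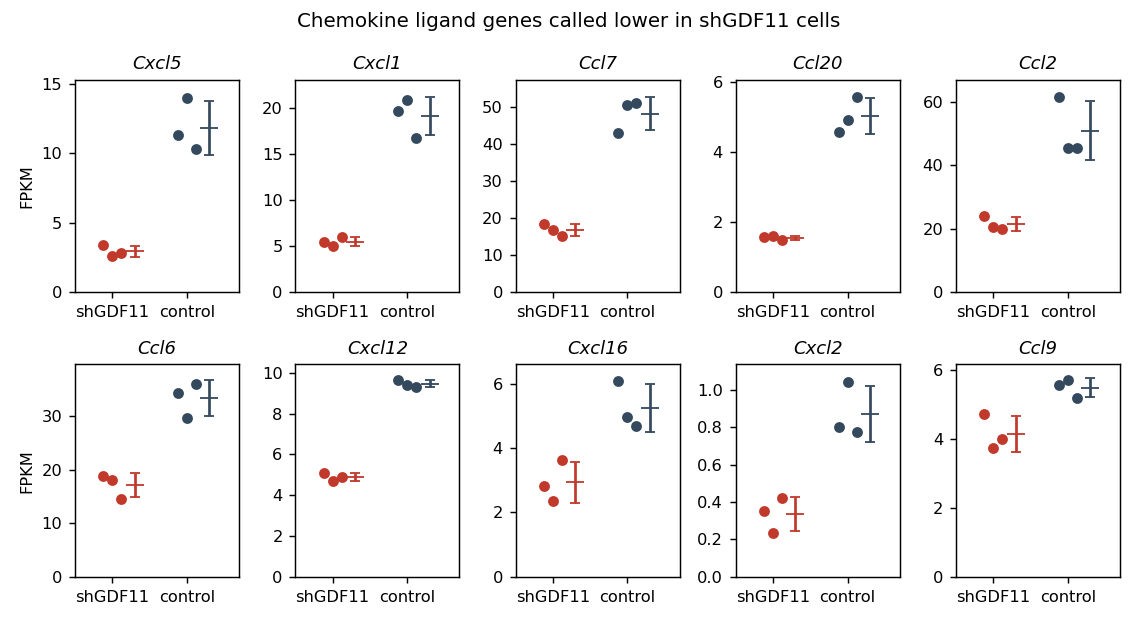
FPKM of the 10 ligand genes called lower, in each shGDF11 library (red, left) and each control library (dark blue, right), with the mean and SD of the 3 libraries beside the points and each axis starting at 0. No gene has a red point as high as its lowest blue point; the widest ratio is that of Cxcl5, with means of 2.94 and 11.85 FPKM, and the narrowest that of Ccl9, with 4.16 and 5.50 FPKM.

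The other called receptor was Ccr1 (chromosome 9, 123962124 to 123968692, minus strand), which binds Ccl3, Ccl5, Ccl6 and Ccl9 in mice. It was at 0.687, 0.797 and 0.263 FPKM in shGDF11 cells, against 1.35, 1.14 and 1.62 FPKM in control cells, from 12 to 37 reads per shGDF11 library and 54 to 75 per control library. The groups did not overlap, and shGDF11 replicate 3 was far below the other 2 (log2 fold change -0.82 ± 0.230 SE, limma adjusted p = 0.037). The call was lost without shGDF11 replicate 1 or 3 (limma adjusted p = 0.067 for each) and without control replicate 1 (0.075), 2 (0.064) or 3 (0.095). TPM scaling (0.059), dropping the filter (0.099) and taking replicate number as a block (0.080) ended it too. The range was 0.0097 to 0.099 over 15 alternatives.

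The remaining tested receptors were not called. Ackr2, a scavenger of inflammatory CC ligands, was at 0.234, 0.332 and 0.555 FPKM in shGDF11 cells, against 0.834, 0.652 and 0.588 FPKM in control cells. Its groups did not overlap, but shGDF11 replicate 3 came close to control replicate 3 (log2 fold change -0.46, 95% interval -0.94 to 0.02, limma adjusted p = 0.14). Ackr1, the Duffy antigen that binds chemokines on venules and red cells, was at 0.736, 1.13 and 1.15 FPKM in shGDF11 cells, against 1.72, 1.11 and 1.53 FPKM in control cells. These overlap (limma adjusted p = 0.17), and Ackr1 shares 25.7% of its exon bases with Cadm3 on the same strand. Ccr10, the receptor of Ccl27 and Ccl28, had overlapping groups of 0.353 to 0.790 FPKM in shGDF11 cells and 0.591 to 1.11 FPKM in control cells (limma adjusted p = 0.26). Ccrl2, which binds the attractant chemerin, was at 2.25, 2.14 and 1.67 FPKM in shGDF11 cells, against 2.18, 1.73 and 1.91 FPKM in control cells, with a log2 fold change of 0.04 (95% interval -0.26 to 0.35, limma adjusted p = 0.84).

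**Figure D4:**
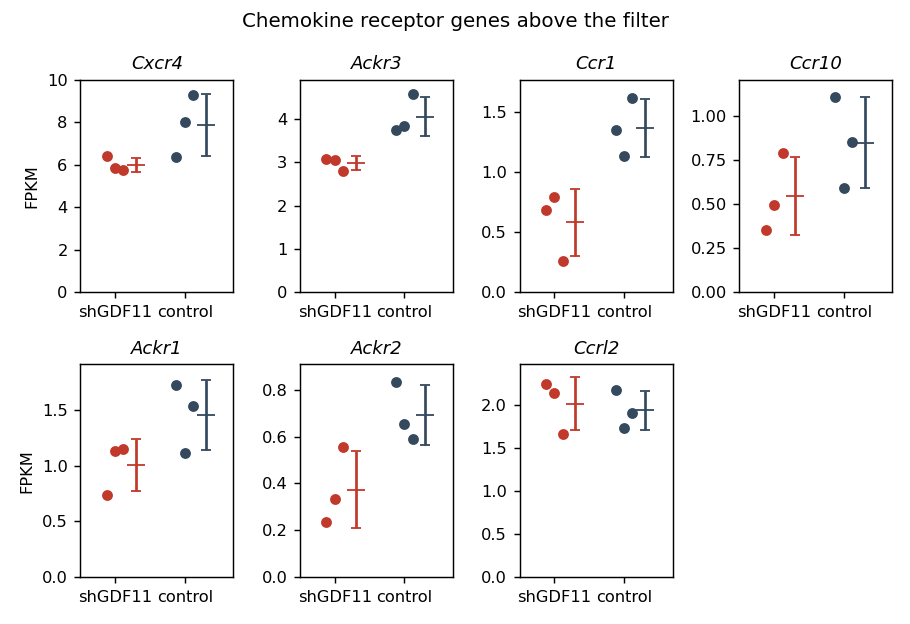
FPKM of the 7 receptor genes that passed the filter, in each shGDF11 library (red, left) and each control library (dark blue, right), with the mean and SD of the 3 libraries beside the points and each axis starting at 0. The groups are apart for Ackr3, Ccr1 and Ackr2 and overlap for Cxcr4, Ccr10, Ackr1 and Ccrl2.

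Not every abundant ligand was lower. Cxcl10, or IP-10, an interferon-induced ligand of Cxcr3, was at 8.40, 9.08 and 8.95 FPKM in shGDF11 cells, against 7.74, 8.31 and 9.91 FPKM in control cells. The shGDF11 values lie inside the control range, and the log2 fold change was 0.03 (95% interval -0.20 to 0.26, limma adjusted p = 0.84). This interval does not reach the estimate of any ligand called lower. Of the exon bases of Cxcl10, 5.91% lie opposite Art3. Art3 was at 30.8, 36.6 and 34.0 FPKM in shGDF11 cells and 31.5, 27.5 and 29.7 FPKM in control cells. Without the strand setting, reads of the shared bases cannot be told apart. Cxcl9, also interferon-induced, had at most 9 reads in a library, and Cxcr3 had 0 reads in shGDF11 libraries and 0, 2 and 3 reads in control libraries. The differences of Cxcl10 from the called ligands were not tested.

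Cx3cl1, or fractalkine, a membrane-bound ligand that holds monocytes to endothelium, was at 9.52, 9.66 and 11.6 FPKM in shGDF11 cells, against 9.10, 8.20 and 9.09 FPKM in control cells. All shGDF11 values lay above all control values, but by little, and it was not called (log2 fold change 0.21, 95% interval -0.01 to 0.43, limma adjusted p = 0.14). Its neighbour on chromosome 8, Ccl17, a ligand of Ccr4, was at 4.50, 7.13 and 6.15 FPKM in shGDF11 cells, against 4.33, 2.80 and 5.01 FPKM in control cells. The ranges overlap (log2 fold change 0.51, 95% interval -0.02 to 1.04, limma adjusted p = 0.14). The third ligand gene of the stretch, Ccl22, which also acts on Ccr4, had at most 4 reads in a library.

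Ccl27a, a ligand of Ccr10 known from skin, was at 4.15, 4.75 and 3.34 FPKM in shGDF11 cells, against 2.97, 2.73 and 3.95 FPKM in control cells, with overlap (limma adjusted p = 0.20). It has near-identical copies, so its own level is uncertain. Ccl25, which guides T cells to the gut through Ccr9, was at 1.57 to 1.71 FPKM in shGDF11 cells and 1.27 to 1.67 FPKM in control cells (limma adjusted p = 0.43). Cxcl14 was at 0.666, 1.17 and 0.746 FPKM in shGDF11 cells, against 1.32, 1.38 and 1.48 FPKM in control cells. Its groups did not overlap, shGDF11 replicate 2 lay nearest to the controls, and it was not called (log2 fold change -0.49, limma adjusted p = 0.065). Without shGDF11 replicate 2 it was (0.034, the lowest of 16 alternatives, whose highest was 0.17). Cxcl13, which draws B cells through Cxcr5, was at 0.539 to 1.12 FPKM in shGDF11 cells and 0.221 to 0.853 FPKM in control cells (limma adjusted p = 0.30). Cxcl17, which had the widest standard error on the log2 scale among the tested members, was at 0.489 to 0.800 FPKM in shGDF11 cells and 0.242 to 1.59 FPKM in control cells (limma adjusted p = 0.99).

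Of the 68 members, 38 (21 ligand and 17 receptor genes) were below the filter, and 15 of these had no read in any library. Those without a read were 7 copies on scaffolds and Ccl19, Ccl21a, Ccl21b, Ccl26, Ccr1l1, Ccr3, Ccr6 and Ccr8 on the main chromosomes. Ccl19, Ccl21 and Ccl27 genes have near-identical copies among which reads may not have been assigned, so their absence from the counts is uncertain. Ackr4, which takes up Ccl19 and Ccl21, lay just under the filter at 0.4183 FPKM on average, with 29, 44 and 40 reads in shGDF11 libraries and 30, 43 and 34 reads in control libraries. Just above the filter were Ccl11 at 0.5014 FPKM and Ackr2 at 0.5325 FPKM. Ccr7, the receptor of Ccl19 and Ccl21 on dendritic cells and T cells, had 3, 14 and 6 reads in shGDF11 libraries and 2, 1 and 0 reads in control libraries. Its groups did not overlap, but it was not called when the filter was dropped (limma adjusted p = 0.19). Ccl28, Xcr1, Ccr9 and Cx3cr1 had at most 17 reads in a library, and Ccr4, Cxcr5, Cxcl15, Ccl1, Ccl24, Ccl27b and Xcl1 at most 6.

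Inflammatory chemokine transcripts often carry AU-rich elements in their 3′ untranslated region, which shorten the life of the transcript. The nonamer TTATTTATT was present in that region in Cxcl1 (2 copies), Cxcl2 (4 copies) and Cx3cl1 (1 copy) among the 30 tested members, and in Cxcl3 (1 copy) below the filter. Of all tested protein-coding genes with such a region in a GENCODE annotation of GRCm38, 8.08% held it. For each gene the transcript with the longest such region was taken. The median length of the region was 1206 bases in the 12 members called lower and 630.5 bases in the 18 not called. It was 1342 bases over all tested protein-coding genes. The core ATTTA occurred at a median of 3.94 per kb in the 12 members called lower, 0.0 per kb in the 18 not called and 1.23 per kb over all tested protein-coding genes. Its density was 11.82 per kb in Cxcl1, 8.57 in Ccl20 and 7.36 in Cxcl2, but also 12.22 in Ccl3, which was not called, and 0.77 in Cxcl12, which was lower.

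Other genes of the pathway were examined as 7 lists with 82 tested genes. Of these, 10 (12.2%) were higher and 20 (24.4%) lower, against 14.4% higher and 13.1% lower over all tested genes. Of 26 tested genes for NF-kB and its inducers, 7 were lower and 1 higher, with a median log2 fold change of -0.16. Nfkbiz, an NF-kB cofactor, was at 4.26 ± 0.546 FPKM in shGDF11 cells and 8.49 ± 0.730 FPKM in control cells (mean ± SD, n = 3 each; limma adjusted p = 0.0014). Tnfaip3, or A20, an inhibitor that NF-kB induces, was at 1.81 ± 0.0675 FPKM in shGDF11 cells and 3.30 ± 0.0669 FPKM in control cells (SD, n = 3 each; limma adjusted p = 0.0013), and the subunit Nfkb2 fell by 0.69 on the log2 scale. Il1a, Tlr2, Rela and Relb were the others that fell. Il1a reached the filter through its higher group alone, with means of 0.476 FPKM in shGDF11 cells and 1.383 FPKM in control cells. Il1r1, the receptor of interleukin 1, was higher, at 6.10 ± 0.423 FPKM in shGDF11 cells and 4.30 ± 0.160 FPKM in control cells (SD, n = 3 each; limma adjusted p = 0.0060). Rela lost its call without control replicate 2 (limma adjusted p = 0.068) or shGDF11 replicate 1, 2 or 3 (0.057, 0.080 and 0.051). Dropping the filter ended it too (0.055), within a range of 0.0026 to 0.080 over 17 alternatives.

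Of 12 tested interferon receptors and factors, 5 were higher and 1 lower, against 14.4% higher and 13.1% lower over all tested genes. Their median log2 fold change was 0.11. Irf7, a master factor of the interferon response, averaged 26.6 ± 0.995 FPKM in shGDF11 cells and 14.5 ± 0.983 FPKM in control cells (SD, n = 3 each; limma adjusted p = 0.00051). Jak1 and Stat2, which relay interferon signals, had means of 28.2 and 29.5 FPKM in shGDF11 cells, against 15.6 and 16.6 FPKM in control cells. Irf9, at a log2 fold change of 0.22, rose as well, and Ifngr2, at -0.19, the 1 that fell. Ifnb1 and Ifng, the interferon genes of the list, had no read in any library. Leaving out any 1 shGDF11 library, or control replicate 2, ended the calls of both Ifngr2 and Irf9, and leaving out control replicate 3 ended that of Ifngr2. Replicate number as a block ended both too (limma adjusted p = 0.12 for Ifngr2 and 0.076 for Irf9). Ifngr2 was also not called after rescaling to TPM (0.43), without the filter (0.068) or without a variance trend (0.087).

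Of 7 genes listed for mRNA decay, whose proteins bind RNA and set the stability of inflammatory transcripts, 4 were lower and 0 higher. Their median log2 fold change was -0.64. The shares over all tested genes were 13.1% lower and 14.4% higher. Zfp36, or tristetraprolin, was at 4.70 ± 0.775 FPKM in shGDF11 cells and 9.86 ± 2.05 FPKM in control cells (SD, n = 3 each; limma adjusted p = 0.0059). Zfp36l2, Zc3h12a (regnase-1) and Khsrp fell by 0.65, 0.68 and 0.64 on the log2 scale. Of 8 tested proteases that cleave chemokines, 3 were lower. Mmp12 and Mmp9 averaged 5.57 and 1.99 FPKM in shGDF11 cells, against 9.46 and 3.29 FPKM in control cells (limma adjusted p = 0.0018 and 0.0045). Adam10, which sheds Cx3cl1 and Cxcl16 from the membrane, was at 31.5 ± 1.79 FPKM in shGDF11 cells and 40.3 ± 1.63 FPKM in control cells (SD, n = 3 each; limma adjusted p = 0.0088), and was not called after rescaling to TPM (limma adjusted p = 0.072, within a range of 0.0015 to 0.072 over 17 alternatives).

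Of 22 tested genes for signalling downstream of the receptors, 3 were higher and 4 lower, with a median of -0.13. Over all tested genes 14.4% were higher and 13.1% lower. Gng2, a G protein gamma subunit, averaged 5.45 ± 0.436 FPKM in shGDF11 cells and 2.11 ± 0.175 FPKM in control cells (SD, n = 3 each; limma adjusted p = 0.00044). Rac1, a GTPase of cell movement, and the receptor kinase Grk3 rose by 0.51 and 0.50 on the log2 scale. Rgs16, which shortens G protein signals, fell by 0.81 on that scale, and Arrb2, Grk5 and Grk6, which switch receptors off, fell by less than 0.5 on it. The 4 falls became 1 without any 1 shGDF11 library and 2 without control replicate 2 or 3. Of the attractants outside the name rule, Pf4 (platelet factor 4) was lower, at 2.80 ± 0.373 FPKM in shGDF11 cells and 5.38 ± 0.394 FPKM in control cells (SD, n = 3 each; limma adjusted p = 0.0020). Rarres2, the chemerin gene, was higher, at 1.32 ± 0.107 FPKM in shGDF11 cells and 0.545 ± 0.193 FPKM in control cells (SD, n = 3 each; limma adjusted p = 0.014). It was the 1 gene called of the 6 tested in its list, and its call was lost without shGDF11 replicate 1 (limma adjusted p = 0.051) or 3 (0.055), within a range of 0.0038 to 0.055 over 15 alternatives.

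**Figure D5:**
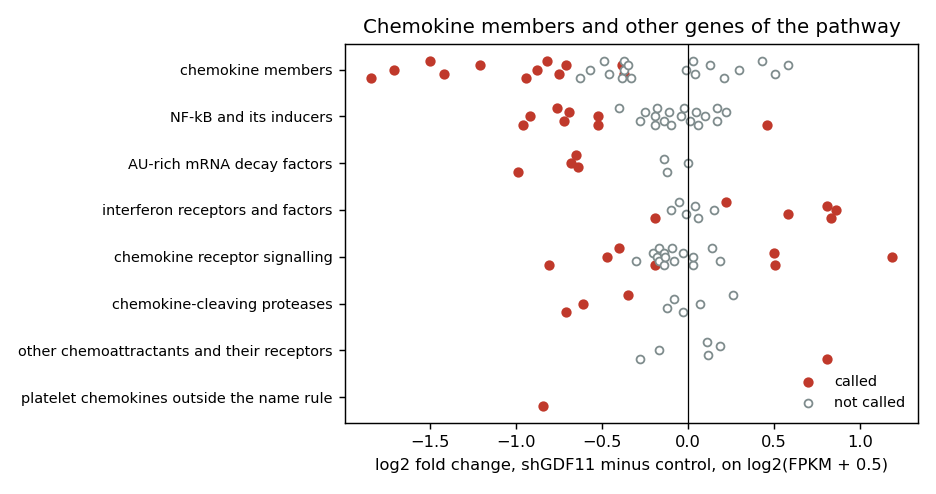
Log2 fold change (shGDF11 minus control, on log2(FPKM + 0.5)) of every tested gene, 1 point each, among the chemokine members and the 7 pathway lists. Filled points are called genes and open points are not; the called chemokine members all lie below 0, those of the interferon list mostly above it, and the 4 called decay factors below it.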

How the data were processed

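RNA-seq of 6 samples was compared by the treatment label. The authors deposited FPKM values for 54532 Ensembl genes. Tools named in the submitters' processing notes, without roles, are featureCounts 1.5.0-p3, HISAT2 2.0.5 and CASAVA 1.8, and the builds named are mm10 and GRCm38. Not given in the sources used here are the annotation release and the strand setting. All 68 members had the same coordinates in a GRCm38 annotation. Multiplied by gene length, 100.0% of positive values came out as whole reads (tolerance 0.05), and these reads were used. A floor of 3 reads is 0.18 to 0.191 FPKM at 1 kb, counting error only.

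Genes averaging 0.5 FPKM or more over the 6 libraries entered limma 3.58.1 (R 4.3.3; eBayes with a variance trend, two-sided) as log2(FPKM + 0.5), with Benjamini-Hochberg adjustment over all 15418 genes, and were called under 0.05. Alternatives were the pseudocount (0.1 or 1), the filter (none, 1 or 5 FPKM), rescaling to TPM, median-ratio scaling, no variance trend, robust eBayes, limma voom on recovered reads, a replicate block and leaving out each library. Members below the filter are given as reads. The gene test was tested on simulated data, with 50 genes changed at each size. It called 40% of 1.5-fold, 82% of 2-fold, 86% of 3-fold and 96% of 4-fold changes. There were 13 false calls among 15425 genes tested. A gene that is not called may thus still differ by a small fold. Members, gene lists and motifs were chosen with earlier results of these data known. Members are named, with up to 4 called genes of each pathway list by smallest p and those of a count of 5 or fewer, apart from some genes whose values are not reported here. Rela, Relb, Il1a and Tlr2 were named after their values were seen.

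The labels do not state that the 3 samples of each group are separate cultures or carry different hairpins. If neither holds, the p-values cover technical spread only. No library repeated another (chi-square of 3.63 to 20.3 per degree of freedom within groups).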

Additional observations from a re-analysis of the deposited data

How the results depend on the processing

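Over 17 alternatives the number of members called higher was 0 each time. The number called lower was 12 here and 8 to 12 when 1 library was left out. It was 9 with no filter, with TPM or with the replicate block, 10 at a mean of at least 1 FPKM, 13 with no variance trend and 6 of 10 members tested at a mean of at least 5 FPKM, where fewer genes were tested. Cxcl5, Cxcl1, Ccl7, Ccl20, Ccl2, Ccl6, Cxcl12 and Cxcl16 kept their call in every alternative that tested them (highest limma adjusted p 0.047). Cxcl2, Ccl9, Ccr1 and Ackr3 lost it in at least 1, and Ccl3, Ccl5, Ccl11, Cxcl14 and Cxcr4 gained one in at least 1. Over all genes, 2227 were called higher and 2026 lower. Leaving out 1 library gave 1256 to 2241 higher and 1072 to 1992 lower. At a mean of at least 5 FPKM 1474 were higher, and after rescaling to TPM 1315 were lower; the cause was not tested.

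Log2 fold changes near 0 changed sign. With 1 library left out, that of Cxcl10 ran from -0.041 (without control replicate 1) to 0.127 and that of Ccrl2 from -0.025 (without shGDF11 replicate 1; -0.021 without control replicate 2) to 0.146. That of Cxcl17 was 0.099 at a pseudocount of 0.1, 0.148 after rescaling to TPM and 0.157 with limma voom, and ran from -0.301 without control replicate 3 to 0.446 without control replicate 1, with 0.024 without shGDF11 replicate 2 and 0.076 without shGDF11 replicate 3. The causes were not tested. Reads limit the weak members: Cxcl2, Ccl4, Ccl8, Ccl11, Cxcl13, Cxcl17, Ccr10 and Ackr1 had under 40 in every library.

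Across genes, the deviations of samples of the same replicate number from their group means correlated at 0.015, 0.015 and -0.052. Those of samples of different number ranged from -0.056 to 0.046. The labels give no pairing beyond the number, and a shared preparation was not tested. With the replicate block 1655 genes were higher and 1568 lower, and 8 of its 9 lower members were among the 12.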
